A study of Mus musculus with 3 samples.

Results

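The genes described here are the interferon response and antigen presentation genes of CAD cells, a mouse neuroblastoma line of catecholaminergic type. They are a list of 39 symbols, chosen by known function but with earlier results of these data known. Each symbol was looked up among the aliases of the deposited gene table. Of these, 38 were found, out of 26839 genes in all. Irf9 was not found under its own symbol and is given separately. Poly(A)+ RNA was sequenced from 3 cultures, 1 library each, taken 72 h after transfection with Lipofectamine 2000. The cultures had received Ptbp1- and Ptbp2-specific ON-TARGETplus siRNAs together (below, both siRNAs), Ptbp1-specific ON-TARGETplus siRNAs alone (Ptbp1 siRNA), or control ON-TARGETplus siRNAs (control). Ptbp1 and Ptbp2 encode polypyrimidine tract binding proteins, RNA-binding regulators of splicing. All 3 cultures had therefore been transfected with an siRNA, and no untransfected culture was analysed here, so a response common to all siRNAs cannot be seen in these comparisons. CAD is a single cultured line, and nothing in the labels describes repeat cultures.

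Cells that sense foreign RNA or DNA make type I interferon. Its receptor signals through the kinases Jak1 and Tyk2 to a complex that holds Stat2 and Irf9 and binds interferon-stimulated response elements in the promoters of antiviral genes. Double-stranded RNA, which siRNAs resemble, is recognised by the cytosolic receptors encoded by Ddx58 (RIG-I) and Ifih1 (MDA5), by the kinase encoded by Eif2ak2 (PKR) and, in endosomes, by Toll-like receptor 3. Interferons also raise MHC class I antigen presentation, in which proteasomes cut proteins into peptides, the Tap1 and Tap2 transporter carries these into the endoplasmic reticulum, and tapasin (Tapbp) helps load them onto a heavy chain (H2-K1, H2-D1) bound to beta-2 microglobulin (B2m). Neurons are known for low class I levels, and NF-kB, the interferon regulatory factors and Nlrc5 are the usual activators of these promoters.

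Each group had 1 library, so the differences lack a replicate check and no p-value is given. The gene clusters held 14242495 reads after both siRNAs, 16899549 after Ptbp1 siRNA and 16011466 in the control, and 1 CPM (the unit of read number scaled to library size) equalled 14.3, 17 and 15.3 reads, in that order. Ptbp1 itself had 1516 reads after both siRNAs, 1486 after Ptbp1 siRNA and 7191 in the control, and Ptbp2 had 633, 3044 and 784. Ptbp1 was 4.44-fold lower after both siRNAs and 5.38-fold lower after Ptbp1 siRNA than in the control. Mitochondrial genes held 4.68%, 3.95% and 3.73% of the reads in the same order. Of 13 catecholaminergic and neuronal markers 12 reached 1 CPM in every library, with summed levels of 4786, 4110 and 4704 CPM. Of 12 leukocyte and microglia markers at most 3 reached 1 CPM, their summed levels were 16.5, 15.5 and 17.4 CPM, and the pan-leukocyte gene Ptprc had 1, 0 and 0 reads. Of 9 fibroblast and matrix markers 5 reached 1 CPM in every library. Their sum was lower in the knockdown libraries, at 79.3 and 106 CPM against 118 CPM in the control. The highest single marker held most of it, at 68.6, 89.7 and 101 CPM. Of the 5 measured in both siRNAs against control, 3 lay below 0 and 2 above. By the 2-fold rule given below, 1 of these 5 was called lower and none higher, the lowest at -1.04. Of the 12 catecholaminergic and neuronal markers measured in that pair, 2 were called higher and none lower, the highest at 1.21. Over all genes 2.71% were called lower and 1.07% higher. Of 5 endothelial markers the sum was 12.0 and 17 CPM against 22.4 CPM, nearly all from a single gene, and 6 astrocyte markers summed to 1.40, 1.71 and 2.62 CPM. The part of these markers in the results below was not tested. In RNA from whole cultures, fewer cells with a transcript and less of it per cell cannot be told apart.

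The promoters of the 8 genes called after both siRNAs against control, and of B2m, the partner of the heavy chains, are shown first, to set out which of them hold DNA words through which interferon and NF-kB are known to act. Each is a 300-base window of RefSeq on the GRCm38.p6 build, from 250 bases before to 50 bases after a transcription start, written along the gene's strand. Capitals mark 3 words searched on both strands: the core of the interferon-stimulated response element (GAAA, any 2 bases, GAAA), a STAT palindrome (TTC, any 3 bases, GAA), and GGGGATTCCCC, an NF-kB word of the class I enhancer A. In the windows shown the words did not overlap. Only exact matches were searched, so a near match to any of the 3 words is not marked. The response element core is in those of B2m, Stat2 and Ddx58. The STAT palindrome is in that of Isg20, and the NF-kB word in those of H2-K1 and H2-D1. Those of Tap1, Tapbp and H2-DMa hold none of the 3. The H2-DMa window stands at the start of its cluster, close to Brd2 and well before the annotated H2-DMa gene. It does not cover the start of that annotated gene.
H2-K1 (chr17:34000298-34000597, minus strand): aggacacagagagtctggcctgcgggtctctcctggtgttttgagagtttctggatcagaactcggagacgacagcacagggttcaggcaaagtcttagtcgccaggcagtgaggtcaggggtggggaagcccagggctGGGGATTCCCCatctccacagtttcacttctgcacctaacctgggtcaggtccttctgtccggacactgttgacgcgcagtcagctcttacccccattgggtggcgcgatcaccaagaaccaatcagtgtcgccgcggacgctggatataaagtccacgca
H2-D1 (chr17:35262844-35263143, plus strand): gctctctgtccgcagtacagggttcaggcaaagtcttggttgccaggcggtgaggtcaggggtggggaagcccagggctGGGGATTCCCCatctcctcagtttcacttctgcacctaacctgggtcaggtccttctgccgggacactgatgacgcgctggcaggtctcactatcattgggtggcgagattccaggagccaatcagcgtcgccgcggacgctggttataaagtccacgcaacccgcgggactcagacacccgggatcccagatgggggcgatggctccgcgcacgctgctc
B2m (chr2:122147437-122147736, plus strand): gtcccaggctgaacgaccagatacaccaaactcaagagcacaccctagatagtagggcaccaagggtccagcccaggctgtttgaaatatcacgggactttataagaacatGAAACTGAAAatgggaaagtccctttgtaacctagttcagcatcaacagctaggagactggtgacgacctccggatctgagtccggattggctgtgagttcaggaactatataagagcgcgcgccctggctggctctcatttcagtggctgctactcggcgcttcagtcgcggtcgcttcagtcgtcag
Tap1 (chr17:34187306-34187605, plus strand): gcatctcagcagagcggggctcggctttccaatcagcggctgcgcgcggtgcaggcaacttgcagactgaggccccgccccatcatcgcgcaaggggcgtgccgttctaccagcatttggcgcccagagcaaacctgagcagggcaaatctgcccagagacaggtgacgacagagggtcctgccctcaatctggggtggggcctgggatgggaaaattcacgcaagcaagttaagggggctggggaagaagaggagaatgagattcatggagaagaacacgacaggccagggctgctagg
Tapbp (chr17:33919228-33919527, plus strand): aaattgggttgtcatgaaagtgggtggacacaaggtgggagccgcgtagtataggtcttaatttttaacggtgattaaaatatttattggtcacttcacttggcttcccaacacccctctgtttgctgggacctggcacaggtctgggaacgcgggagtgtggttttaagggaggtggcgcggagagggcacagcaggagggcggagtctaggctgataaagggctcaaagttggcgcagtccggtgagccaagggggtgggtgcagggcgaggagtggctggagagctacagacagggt
Stat2 (chr10:128270248-128270547, plus strand): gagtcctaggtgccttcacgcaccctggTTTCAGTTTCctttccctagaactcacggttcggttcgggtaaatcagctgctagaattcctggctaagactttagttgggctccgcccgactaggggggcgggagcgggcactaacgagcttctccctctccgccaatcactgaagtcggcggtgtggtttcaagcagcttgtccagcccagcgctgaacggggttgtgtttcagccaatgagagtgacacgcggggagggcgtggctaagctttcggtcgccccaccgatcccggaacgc
Ddx58 (chr4:40239776-40240075, minus strand): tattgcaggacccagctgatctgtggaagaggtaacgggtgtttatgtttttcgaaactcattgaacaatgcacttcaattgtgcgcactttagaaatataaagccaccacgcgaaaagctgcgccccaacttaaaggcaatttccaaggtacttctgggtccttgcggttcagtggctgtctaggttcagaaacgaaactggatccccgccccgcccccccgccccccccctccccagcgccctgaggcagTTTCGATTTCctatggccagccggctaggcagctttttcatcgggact
Isg20 (chr7:78913174-78913473, plus strand): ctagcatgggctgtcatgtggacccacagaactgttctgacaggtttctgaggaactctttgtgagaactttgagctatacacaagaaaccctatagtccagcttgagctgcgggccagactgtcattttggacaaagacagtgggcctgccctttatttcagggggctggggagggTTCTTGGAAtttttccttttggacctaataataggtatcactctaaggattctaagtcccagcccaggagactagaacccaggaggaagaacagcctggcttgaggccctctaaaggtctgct
H2-DMa (chr17:34122582-34122881, plus strand): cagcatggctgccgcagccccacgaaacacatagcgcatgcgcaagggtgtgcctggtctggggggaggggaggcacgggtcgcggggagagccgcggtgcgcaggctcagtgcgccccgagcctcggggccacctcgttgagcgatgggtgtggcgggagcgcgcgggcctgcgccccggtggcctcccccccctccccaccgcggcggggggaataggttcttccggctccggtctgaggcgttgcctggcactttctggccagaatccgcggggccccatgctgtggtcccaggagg

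Windows were found for 32 of the 38 genes. The response element core was in a window of 13 of these (40.6%), against 3.99% of 27025 genes with a window. The STAT palindrome was in 10 (31.2%), against 9.55% of all genes. The enhancer A word, which was added after the windows of H2-K1 and H2-D1 had been read, stood in 9 of all 27025 genes (0.0333%), H2-K1 and H2-D1 among them. Where aligned, the windows of H2-K1 and H2-D1 were identical at 211 of 240 positions (87.9%). The Tap1 window shares 275 bases with that of Psmb9, the neighbouring gene on the opposite strand. A match is a description of the letters and does not show binding, and the lack of one says only that these letters are not in the window.

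Tapbp, Tap1, H2-K1 and H2-D1, all of MHC class I presentation, were lower after both siRNAs than in the control, and 9 of the 38 listed genes, among them Isg15, Ifit1 and Rsad2, had fewer than 50 reads over the 3 libraries together. Genes at or above 1 CPM in 1 or both libraries of a pair count as measured. A call by size needed a log2(CPM + 1) difference of 1 or more in either direction (2-fold) and an exact 95% counting interval of the read ratio that excluded 1. Such intervals hold the counting error alone, and differences between cultures are not in them. After both siRNAs, 8 of the 31 listed genes measured differed from the control by size, 1 higher and 7 lower. Over all 13304 genes measured 3.78% were called, 1.07% higher and 2.71% lower. Those lower were Tapbp, Isg20, Tap1, H2-K1, Ddx58, H2-D1 and Stat2, and H2-DMa was higher. Several lie close to the limit: at a pseudocount of 5 CPM in place of 1, the count was 3 (Tapbp, H2-K1 and H2-DMa). At a pseudocount of 0.1 CPM it was 10, with Dhx58 and Ifit2 called higher besides H2-DMa. At a limit of 1.5-fold, the same 3 genes were higher and 12 were lower, against 7.27% and 10% of all genes (17.3% together). Of these, Dhx58 and Ifit2 reached 1 CPM only in the library with both siRNAs. They count as measured in this pair only because they were high there, and could not have been called lower.

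In Ptbp1 siRNA against control, none of the 30 genes measured was called in either direction, while 0.738% of all 13284 genes were (0.279% higher and 0.459% lower). At a limit of 1.5-fold, 1 was higher (H2-DMa) and 3 were lower (Ifitm3, Tapbp and Isg20), with 3.0% and 3.47% of all genes called at that limit (6.47% together). In both siRNAs against Ptbp1 siRNA, again none of 32 was called, against 0.45% of all 13338 genes (0.105% higher and 0.345% lower). There the limit of 1.5-fold gave 1 higher (H2-DMa) and 8 lower genes (Bst2, Ddx58, H2-D1, H2-K1, Isg20, Psmb8, Tap1 and Tapbp), and 1.84% and 3.59% of all genes passed it (5.44% together). The median difference of the listed genes was -0.10 in Ptbp1 siRNA against control, -0.36 in both siRNAs against control and -0.22 in both siRNAs against Ptbp1 siRNA. Over all genes these medians were -0.01, -0.01 and -0.00. Below 0 lay 18 of 30, 22 of 31 and 23 of 32 listed genes, and 51.6%, 51.3% and 50.8% of all genes measured. The 3 pairs share libraries, so these values are set side by side only.

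**Figure D1:**
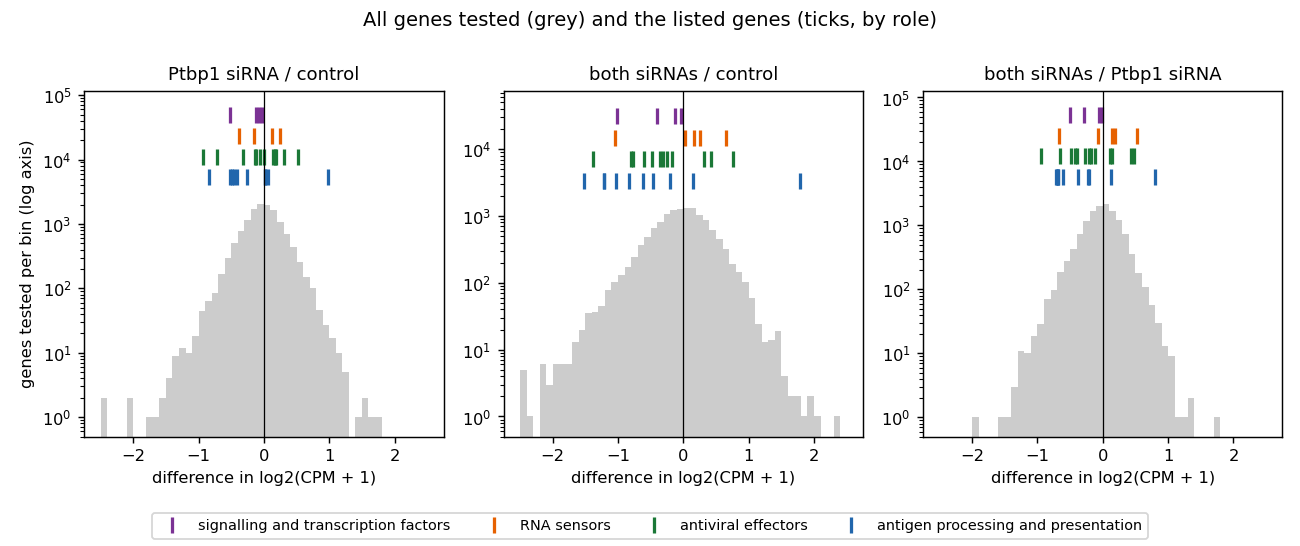
Differences in log2(CPM + 1) for all genes measured in each pair (grey bars, number of genes per bin on a log axis, values beyond 2.5 drawn in the end bins) and for the listed genes (ticks, 1 row per role). In the middle panel, both siRNAs against control, most ticks of antigen processing and presentation lie below 0, down to -1.53 for Tapbp, and H2-DMa stands alone at 1.78.

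Of the 10 genes of antigen processing and presentation, all were measured in each pair. After both siRNAs 4 were called lower than in the control and 1 higher, against 2.71% and 1.07% of all genes, with a median difference of -0.73. H2-K1, the gene of a class I heavy chain (mm9 build, chromosome 17, 34132958 to 34137279), had 1720 reads after both siRNAs, 3386 after Ptbp1 siRNA and 4265 in the control. Relative to the control it was 2.32-fold lower after both siRNAs (95% counting interval 2.19 to 2.45) and 1.40-fold lower after Ptbp1 siRNA (1.34 to 1.47). H2-D1, the second classical heavy chain gene (chromosome 17, 35400040 to 35462365), had 886, 1621 and 1951 reads in the same order of libraries. That is 2.06-fold lower after both siRNAs (1.90 to 2.23) and 1.34-fold lower after Ptbp1 siRNA (1.25 to 1.43), both relative to the control. In both genes the library with both siRNAs was lowest and the control highest.

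H2 genes share reads. Of the 36-base words in the coding transcripts of H2-K1, 15.5% were also found in transcripts of other genes, and for H2-D1 the share was 21.7%, the partners being each other and H2-Q and H2-T genes. The H2-D1 cluster also runs on over H2-Q2, while the annotated H2-D1 gene ends at 35404444. The reads of single heavy chain genes are therefore uncertain and are best read as a group. Without the H2 genes and the other listed genes with over 10% shared bases, 5 of 23 genes measured were called after both siRNAs against the control, all lower. Over all genes 3.78% were called, 2.71% lower. These 5 are the calls given above less those of H2-K1, H2-D1 and H2-DMa, so their direction is no separate check.

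Tapbp, the gene of the peptide loading factor tapasin (chromosome 17, 34056573 to 34066236), had 925 reads after both siRNAs, 1785 after Ptbp1 siRNA and 2877 in the control. On the log2(CPM + 1) scale it was the lowest of the listed genes relative to the control, at -1.53, or 2.91-fold lower after both siRNAs (2.70 to 3.14) and 1.79-fold lower after Ptbp1 siRNA (1.69 to 1.90). Between the knockdown libraries it was 1.62-fold lower with both siRNAs than with Ptbp1 siRNA alone (1.5 to 1.76). Only 2.35% of its words were shared. Tap1, which encodes a subunit of the peptide transporter (chromosome 17, 34324826 to 34333745), had 119, 240 and 315 reads, 2.48-fold lower after both siRNAs (2.00 to 3.08) and 1.46-fold lower after Ptbp1 siRNA (1.23 to 1.73) than in the control. Tap2, its partner (chromosome 17, 34341512 to 34353267), had read values of 408, 637 and 790, 1.81-fold lower after both siRNAs (1.61 to 2.05), short of the limit. About 18.5% of the exon bases of Tap2 are shared with other genes. For these 3 genes, too, the library with both siRNAs was lowest and that with Ptbp1 siRNA lay between.

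B2m, the gene of the light chain shared by all class I molecules (chromosome 2, 121973424 to 121978819), differed less. It had 1444 reads after both siRNAs, 1981 after Ptbp1 siRNA and 2134 in the control, which is 1.38-fold (1.29 to 1.48) and 1.20-fold lower (1.13 to 1.27) than the control. Its window holds the response element core shown above. By the authors' RPKM, H2-K1 and H2-D1 together were 1.96 times B2m after both siRNAs, 2.74 times after Ptbp1 siRNA and 3.15 times in the control. RPKM divides by the cluster length, which for B2m is 2414 bases, where the annotated gene has 860 exon bases. For H2-K1 these lengths are 2303 and 2608, and for H2-D1 2091 and 2588. The excess of heavy chain over B2m is therefore uncertain, while each length is the same in all 3 libraries.

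None of the 3 immunoproteasome subunit genes was called. Psmb8 (chromosome 17, 34335345 to 34338212) had 180, 354 and 304 reads after both siRNAs, after Ptbp1 siRNA and in the control. Relative to the control it was 1.58-fold lower after both siRNAs (1.31 to 1.91), while Ptbp1 siRNA against control gave a ratio of 1.05 (0.896 to 1.22). Psmb10 (chromosome 8, 108459665 to 108462006), with 590, 642 and 568 reads, had ratios to the control of 1.11 (0.988 to 1.25) and 1.02 (0.906 to 1.14), after both siRNAs and after Ptbp1 siRNA. Psmb9, whose window overlaps that of Tap1, had 16, 25 and 22 reads and a ratio of 0.777 after both siRNAs (0.382 to 1.55), an interval that holds both 1 and the ratio seen for Tap1.

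H2-DMa was higher in the knockdown libraries. Its product is a chain of the DM molecule, which loads peptides onto MHC class II. The cluster (chromosome 17, 34259778 to 34276029) had 147 reads after both siRNAs, 93 after Ptbp1 siRNA and 35 in the control. It was 4.49-fold higher after both siRNAs (3.09 to 6.69) and 2.39-fold higher after Ptbp1 siRNA (1.60 to 3.63) than in the control. After Ptbp1 siRNA the difference was 0.98 on the log2(CPM + 1) scale and so just short of a call. Between the knockdown libraries it was 1.88-fold higher with both siRNAs (1.44 to 2.46). The cluster starts well before the annotated gene, at 34272127, and close to Brd2, an abundant gene on the opposite strand whose cluster ends at 34259242. Brd2 had 4406, 5278 and 5080 reads, a difference of -0.11 after both siRNAs against the control. Which exons of the cluster held the added reads cannot be read from a total per gene. The partner chain was not detected to a useful level, as the cluster of H2-DMb1 had 0, 4 and 2 reads. The classical class II genes H2-Aa and H2-Ab1 had 0 reads in all 3 libraries, and H2-Eb1 had 0, 0 and 1. Taken as a raw count, a 0 allows up to 3 counts, or 0.210, 0.177 and 0.196 CPM. The deposited values are net and not raw counts, so this limit may not hold for them.

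**Figure D2:**
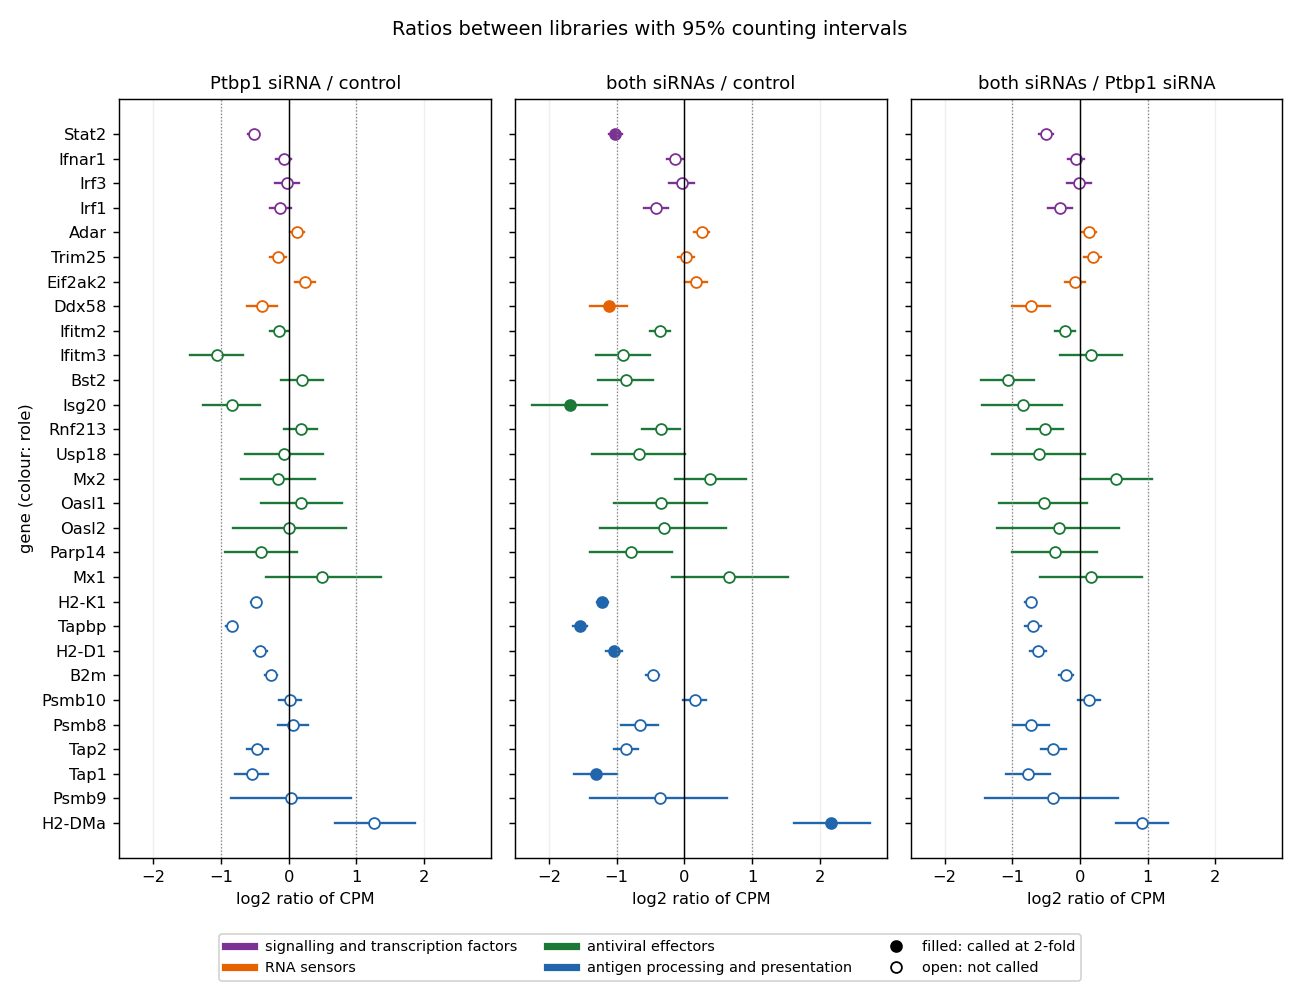
Log2 ratios of CPM for the 29 listed genes with at least 50 reads in all, by pair (points, with exact 95% counting intervals as bars, filled where called at 2-fold on the log2(CPM + 1) scale, colours by role). After both siRNAs H2-K1, H2-D1, Tapbp, Tap1, Stat2, Ddx58 and Isg20 are filled on the left of 0 and H2-DMa on the right, and no point is filled in the other panels.

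Of the genes of the interferon receptor and its transcription factors, Stat2 was the 1 called, and the receptor and Irf3 differed little. Stat2, the signal transducer specific to type I and III interferons (chromosome 10, 127707633 to 127729906), had 1231 reads after both siRNAs, 2073 after Ptbp1 siRNA and 2666 in the control. It was 2.03-fold lower after both siRNAs (1.89 to 2.17) and 1.43-fold lower after Ptbp1 siRNA (1.35 to 1.52) than in the control, with no shared words. Irf1, an interferon-induced activator of class I genes, had 461, 672 and 659 reads and was 1.34-fold lower after both siRNAs (1.19 to 1.51). Ifnar1, the gene of a receptor subunit, had 1030, 1277 and 1209 reads, with ratios to the control of 0.911 (0.837 to 0.990) after both siRNAs and 0.95 (0.877 to 1.03) after Ptbp1 siRNA. Irf3, the constitutive factor activated by RNA sensing, had 465, 557 and 510 reads, with ratios of 0.975 (0.858 to 1.11) and 0.982 (0.869 to 1.11). Irf7, the interferon-induced factor that amplifies the response, had only 7, 15 and 12 reads. Irf9 stands in the table under an older symbol, at chromosome 14, 56223041 to 56228868. It had 69, 116 and 98 reads, a ratio to the control of 0.753 (0.545 to 1.03) after both siRNAs.

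The RNA sensors were split. Ddx58 (chromosome 4, 40150811 to 40186859), whose product RIG-I detects short double-stranded RNA with free 5′ phosphates, had 161 reads after both siRNAs, 316 after Ptbp1 siRNA and 373 in the control. It was 2.17-fold lower after both siRNAs (1.8 to 2.62) and 1.31-fold lower after Ptbp1 siRNA (1.13 to 1.53) than in the control. Eif2ak2, the gene of the RNA-activated kinase PKR, had 671, 838 and 636 reads, or 1.13 times (1.01 to 1.26) and 1.18 times the control (1.07 to 1.32) after both siRNAs and after Ptbp1 siRNA. Adar, which encodes an RNA-editing deaminase that limits sensing of the cell's own RNA, had 1459, 1576 and 1304 reads, 1.20 times the control after both siRNAs (1.11 to 1.29). Trim25, the gene of a ubiquitin ligase that acts on RIG-I, had 1135, 1187 and 1191 reads and ratios to the control of 1.02 (0.938 to 1.11) and 0.896 (0.826 to 0.972). Ifih1 had 4, 15 and 8 reads. Dhx58, the gene of a regulatory helicase of the same family, had 17, 9 and 6, the library with both siRNAs highest. With both siRNAs it stood 3.03-fold above the control (1.14 to 9.38), at 0.65 on the log2(CPM + 1) scale, which passed the limit of 1.5-fold and not that of 2-fold. Dhx58 reached 1 CPM only in that library, so it counts as measured only because it was high there.

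Most antiviral effectors were low in all 3 libraries. Of 12 measured in both siRNAs against control 9 lay below 0 (51.3% of all genes), with a median of -0.34. Of these 12, 1 was called, lower, where 2.71% of all genes were called lower and 1.07% higher. Of 17 genes, 6 had fewer than 50 reads over the 3 libraries together. The summed level of all 17 effectors was 90.8 CPM after both siRNAs, 112 after Ptbp1 siRNA and 123 in the control, of which Ifitm2 made up 45.2, 52.6 and 58.2 CPM. Among the sentinel genes of an interferon response, Isg15, which encodes a ubiquitin-like modifier, had 11, 14 and 14 reads. Ifit1, an inhibitor of foreign mRNA translation, had 2, 3 and 3, and Rsad2 (viperin) had 12, 17 and 6. Oas1a, an oligoadenylate synthetase gene, had 1, 2 and 0 reads, and Ifit3 had 2, 0 and 0. Ifit2 had 21, 13 and 7 reads, the library with both siRNAs highest, a ratio to the control of 3.21 (1.31 to 8.93) at 0.76 on the log2(CPM + 1) scale, which likewise passed the limit of 1.5-fold only. Like Dhx58, Ifit2 counts as measured only because it was high in that library. The 9 listed genes under 50 reads summed to 77, 88 and 56 reads, and none passed 1.47 CPM in any library.

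Isg20 was the effector called. It encodes an interferon-induced exonuclease (chromosome 7, 86058345 to 86065225) and had 37 reads after both siRNAs, 79 after Ptbp1 siRNA and 127 in the control. It was 3.21-fold lower after both siRNAs (2.21 to 4.77) and 1.79-fold lower after Ptbp1 siRNA (1.34 to 2.40) than in the control. Bst2 (tetherin), which holds budding viruses at the cell surface, had 80, 199 and 156 reads. Its library with both siRNAs was low against both others, 2.09-fold below Ptbp1 siRNA (1.61 to 2.75) and 1.82-fold below the control (1.38 to 2.42). Ifitm3, a membrane protein gene that blocks viral entry, had 80, 85 and 160 reads and so was low in both knockdown libraries, 1.87-fold (1.42 to 2.48) and 2.09-fold lower (1.60 to 2.76) than in the control. Neither was called. Of the words of Ifitm3 13.8% were shared with other Ifitm genes and predicted copies.

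Ifitm2 (645, 893 and 888 reads after both siRNAs, after Ptbp1 siRNA and in the control) was 1.29-fold below its control level after both siRNAs (1.16 to 1.43), with 19.2% of its words shared. Rnf213, which encodes a large ubiquitin ligase, had 184, 313 and 249 reads in a cluster that covers only the last part of the annotated gene. Parp14, an ADP-ribosyltransferase gene, had 37, 57 and 68 reads and was 1.72-fold lower after both siRNAs (1.14 to 2.64). Usp18, whose product restrains the interferon receptor, had 30, 54 and 51 reads, with a ratio of 0.629 (0.387 to 1.01). For Oasl1 (33, 57 and 45 reads), Oasl2 (19, 28 and 25), Mx1 (31, 33 and 21) and Mx2 (72, 59 and 59) the intervals of both siRNAs against control included 1.

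**Figure D3:**
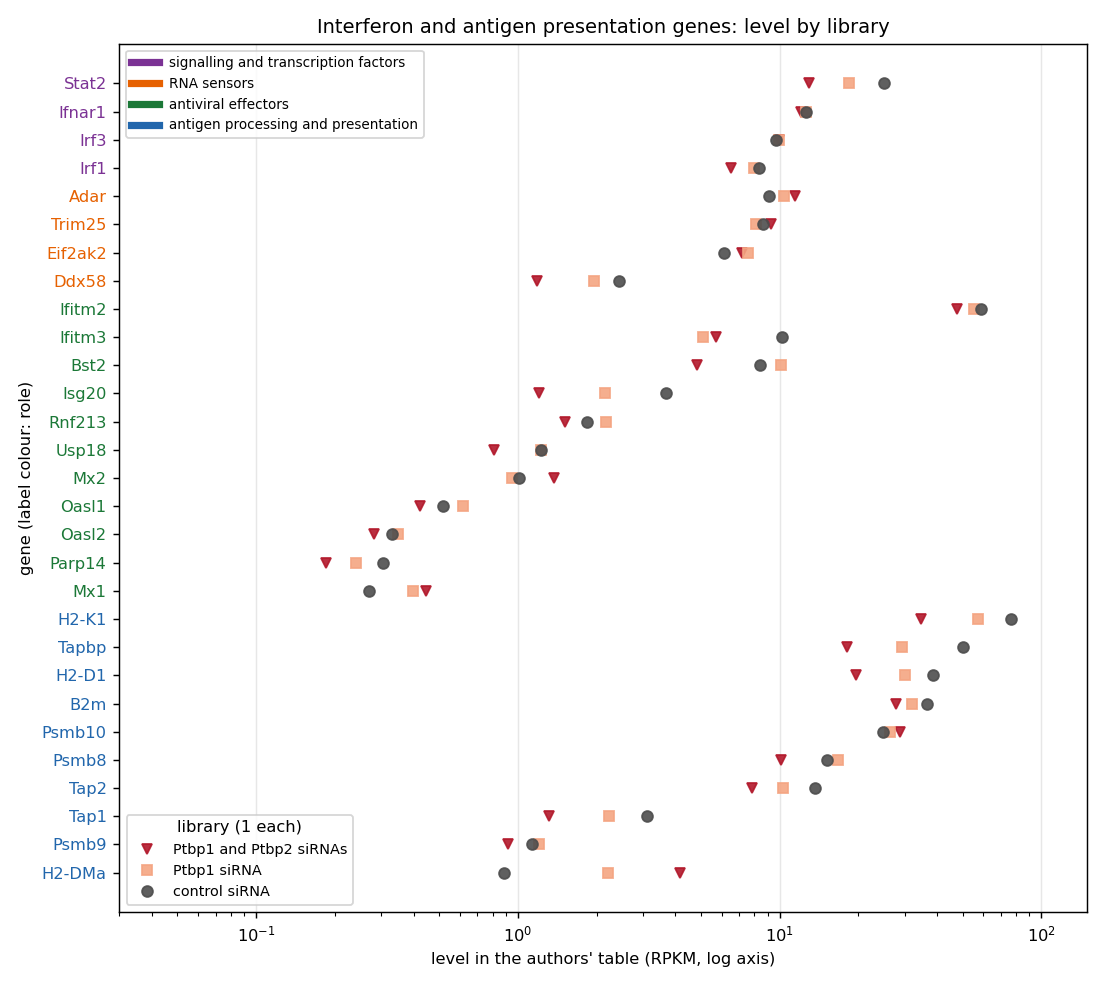
Levels of the 29 listed genes with at least 50 reads in all, as RPKM in the authors' table (log axis), 1 point per library, ordered by role and by control level. H2-K1, at 34.6 RPKM after both siRNAs, 57.3 after Ptbp1 siRNA and 76.6 in the control, has the highest RPKM in the control. Oasl1, Oasl2, Mx1 and Parp14 lie below 1 RPKM in every library. The order of genes depends on the cluster lengths used.

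By the authors' RPKM, which divides by length, the control levels ran from 76.6 for H2-K1, 58.6 for Ifitm2, 50.4 for Tapbp, 38.6 for H2-D1 and 36.6 for B2m down to 0.842 for Isg15 and 0.0471 for Ifit1, with Oas1a and Ifit3 listed at 0. The order between genes, B2m above all, depends on the cluster lengths used and is uncertain. After both siRNAs Ifitm2, at 47.7 RPKM, stood above H2-K1, at 34.6, while in the control H2-K1 was the higher. Among the transcription factors Stat2 had 13.0, 18.4 and 25.1 RPKM after both siRNAs, after Ptbp1 siRNA and in the control, and Irf3 had 9.90, 9.98 and 9.69.

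Other genes of the same pathways were taken from lists drawn up by function, also with earlier results of these data known. Their counts are descriptions only. Among 31 further genes of antigen processing measured in both siRNAs against control, 5 were called lower and none higher, with a median of -0.44, where 2.71% of all genes were called lower and 1.07% higher around a median of -0.01. Mr1, whose class I-like product presents microbial metabolites to T cells (chromosome 1, 156975009 to 156993911), had 28 reads after both siRNAs, 69 after Ptbp1 siRNA and 177 in the control. It was 5.91-fold lower after both siRNAs (3.95 to 9.15) and 2.85-fold lower after Ptbp1 siRNA (2.15 to 3.83), and was called in both comparisons with the control. The nonclassical heavy chain genes H2-T23 (154, 280 and 417 reads) and H2-T10 (157, 275 and 399) were 2.53-fold (2.1 to 3.07) and 2.38-fold lower (1.97 to 2.88) after both siRNAs than in the control, but their clusters overlap and their reads cannot be separated. H2-Q10, a further class I gene, had 70, 173 and 258 reads and was 3.45-fold lower (2.64 to 4.56), with the same reservation about shared reads. Not called were H2-Q8 at -0.92 and H2-Q4 at -0.89, and Cd74, the invariant chain of class II, with 211, 370 and 393 reads, at -0.76. H2-Oa, a class II-like gene, was 3.74-fold lower (2.01 to 7.49) on 13, 36 and 52 reads. The chaperone genes Calr, Canx and Pdia3 were at -0.44, -0.19 and -0.23 on the log2(CPM + 1) scale, and the constitutive proteasome genes Psma7, Psmb5, Psmb6 and Psmb7 at 0.27, 0.08, 0.06 and 0.09, none of them called.

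Of 65 other interferon-stimulated genes listed, 27 were measured in both siRNAs against control and 28 in each other pair, with no call in any. Over all genes 3.78% were called in both siRNAs against control, 0.738% in Ptbp1 siRNA against control and 0.45% in both siRNAs against Ptbp1 siRNA. With so few genes, no call is near these shares. The median of these interferon-stimulated genes was -0.18 in both siRNAs against control, with 23 of 27 below 0 (51.3% of all genes), and 0.02 in Ptbp1 siRNA against control. Igtp was at -0.65, Parp10 at -0.60, Trim56 at -0.54 and Tor1b at 0.74 after both siRNAs. Cxcl10, a chemokine gene induced by interferon and NF-kB, had 24 reads after both siRNAs, 67 after Ptbp1 siRNA and 31 in the control, the Ptbp1 siRNA library being highest. Of the interferon genes, Ifnb1 and Ifna4 were looked up, and each had 0 reads in all 3 libraries.

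Among receptors, kinases and regulatory factors, 1 of 21 genes measured was called after both siRNAs against control, a share near the 3.78% of all genes. Tyk2, the kinase bound to Ifnar1 (chromosome 9, 20908513 to 20935720), had read values of 225, 412 and 504 and stood 2.1-fold below the control (1.79 to 2.46). Jak1 was at 0.11, Stat3 at -0.58, Irf2bp2 at -0.66 and Ptpn6 at -0.85. Nlrc5, an activator of class I genes, had 0, 0 and 1 reads. Among 18 genes of nucleic acid sensing Ticam1, the adaptor of Toll-like receptor 3 (chromosome 17, 56408886 to 56416182), was the 1 called, again near the share of all genes. It had 44, 133 and 189 reads, 4.02-fold below the control after both siRNAs (2.88 to 5.71) and 2.54-fold below Ptbp1 siRNA (1.8 to 3.66). Tmem173 (STING), the adaptor of cytosolic DNA sensing, had 106, 225 and 227 reads and stood at -0.91. Mavs, the adaptor of the cytosolic sensors, was at -0.58 and Dicer1 at 0.53.

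**Figure D4:**
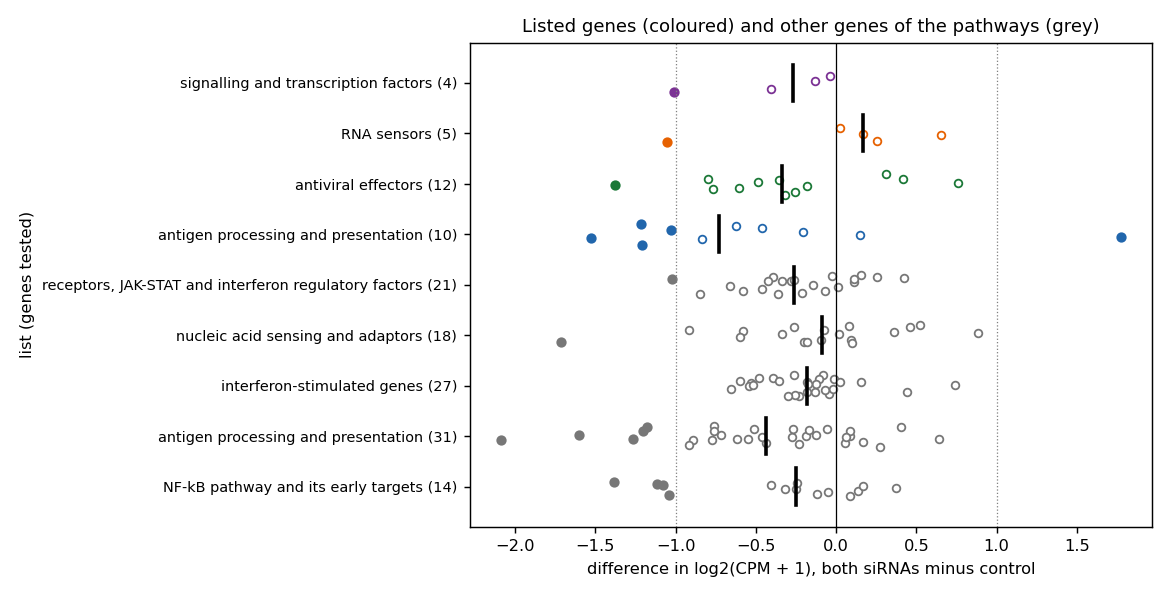
Differences in log2(CPM + 1) of both siRNAs minus control for the listed genes by role (coloured) and for other genes of the pathways (grey), each point a gene reaching 1 CPM, filled where called at 2-fold, with the median of each list as a black bar and the number of genes in brackets. The lowest medians are those of the antigen processing and presentation lists, -0.73 and -0.44.

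NF-kB is a known activator of class I promoters, and its genes were followed for that reason. NF-kB activity was not measured, and a link between these RNA levels and those of class I genes was not tested. Of 14 measured in both siRNAs against control, 4 were called lower and none higher, with a median of -0.25, against 2.71% and 1.07% of all genes and a median of -0.01. Nfkbia, the gene of the inhibitor that NF-kB itself induces, had 1101 reads after both siRNAs, 2222 after Ptbp1 siRNA and 2436 in the control, 2.07-fold below the control after both siRNAs (1.93 to 2.22). Tnfaip3, another induced inhibitor gene, had 61, 149 and 195 reads and was 2.99-fold lower (2.23 to 4.06). The subunit genes Nfkb2 (259, 485 and 602 reads) and Relb (58, 140 and 152) were 2.17-fold (1.88 to 2.53) and 2.45-fold lower (1.8 to 3.38). In Ptbp1 siRNA against control none of the 14 was called, where 0.738% of all genes were, so no call among 14 is near that share. In that pair Tnfaip3 was at -0.49, Nfkb2 at -0.45, Nfkbia at -0.28 and Relb at -0.25.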

How the data were processed

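Per the labels' protocols, poly(A)+ RNA was hydrolysed, primed at random and, after selection of fragments near 350 bp, put through 15 rounds of PCR, with reads of 36 bases at both ends. No step that marks strand is described. The authors deposited whole-number read values for 27389 gene clusters, with RPKM (reads over length and library total), per the file headers, on mm9, per the submitters' processing notes. The sources used here name no aligner or counting tool. Some values lie below 0, so something had been subtracted that no source used here explains.

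The 38 clusters with a value below 0 (lowest -65) and the 127 without a length were left out, and the rest were treated as counts, with 1 row per symbol (the highest mean). The planned comparison of counts was kept although the values are net and not raw counts. Libraries were scaled by trimmed means of M values (30% of M, 5% of A) in numpy 2.4.6, giving factors of 1.01, 1.02 and 0.968 for both siRNAs, Ptbp1 siRNA and control. Intervals are exact conditional binomial 95% intervals (scipy 1.17.1). The calling step was tested on simulated data. Shared exon bases and 36-base words were computed from GENCODE on the same build. Starts are printed from 1.

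Members and gene lists were chosen with earlier results of these data known. Listed genes with 50 reads or more are named with values (as exceptions, reads are also given for those under 50), and of other genes those called and up to 4 more per list. Genes named beyond that rule, such as Calr, Canx, Pdia3, Psma7, Psmb5, Psmb6, Psmb7, Jak1, Nlrc5, Cxcl10, Ifnb1, Ifna4, Brd2 and class II genes, were chosen after their values were seen or for their role. Alternatives were other pseudocounts, filters, scalings, size limits and row rules, and leaving out genes with shared bases, or, added after seeing the data, genes whose clusters end away from the annotation.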

Additional observations from a re-analysis of the deposited data

How the results depend on the processing

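No paired analysis was possible because each group had 1 library. For both siRNAs against control, the 8 genes called (1 higher) became 10 at a pseudocount of 0.1 CPM (3 higher: H2-DMa, Dhx58 and Ifit2), 3 at a pseudocount of 5 CPM, 5 with library totals without scaling factors, 5 without the H2 genes and those with shared bases, and 15 at a limit of 1.5-fold. Of these, Dhx58 and Ifit2 were measured only through the library with both siRNAs, where they were high. For Ptbp1 siRNA against control, the 0 genes called became 2 at a pseudocount of 0.1 CPM (H2-DMa and Ifitm3), 1 with library totals (H2-DMa) and 4 at 1.5-fold. For both siRNAs against Ptbp1 siRNA, the 0 became 1 at a pseudocount of 0.1 CPM (Bst2) and 9 at 1.5-fold. Under library totals Stat2, Ddx58 and H2-D1 lost their calls at -0.94, -0.99 and -0.96, and at a pseudocount of 5 CPM Tap1 and Isg20 did so as well. Under library totals the median of all genes was 0.06 in Ptbp1 siRNA against control and 0.05 in both siRNAs against control, and the calls over all genes were 50 higher and 48 lower in the first of these pairs, where they otherwise were 37 and 61, and 193 higher and 286 lower in the other. No called gene reversed its direction under any alternative. Over all genes in both siRNAs against control, 142 were called higher and 361 lower, 341 and 539 at a pseudocount of 0.1 CPM, 45 and 179 at 5 CPM and 967 and 1335 at 1.5-fold. In Ptbp1 siRNA against control these numbers were 37 and 61, 166 and 138, 4 and 26, and 399 and 461, and in both siRNAs against Ptbp1 siRNA 14 and 46, 86 and 170, 1 and 9, and 246 and 479. Leaving out H2-DMa, H2-D1 and Rnf213, whose clusters end away from the annotated genes, was added after seeing the data and gave 6 called genes, all lower, where 2.71% of all genes were called lower. This only drops the calls of H2-DMa and H2-D1 and leaves the others as they were. Leaving out replicates was not possible with 1 library per group. Depth limits the genes with few reads, 6 of 17 antiviral effectors and 2 of 6 RNA sensors having under 50: at 1 CPM a library held 14.3 to 17 reads.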

Other observations

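Neighbours of the class I genes on chromosome 17 were looked at after the values above were known. Between Tapbp and Tap2 lie 18 other clusters of the table, of which 14 were measured in both siRNAs against control. Their median difference was -0.19 on the log2(CPM + 1) scale, with 4 above 0. Over all genes 2.71% were called lower and 1.07% higher, and of these 14 clusters 2 were called, both lower. These were H2-K2, a further heavy chain cluster with 68 reads after both siRNAs, 155 after Ptbp1 siRNA and 241 in the control, and H2-Oa. Genes with no part in presentation that lie between these differed in direction, and none was called. Wdr46 had 1207, 1111 and 646 reads and stood at 0.98, Vps52 at 0.49, H2-Ke6 at -0.72, Rgl2 at -0.39, Rxrb at -0.56, Slc39a7 at -0.52, Ring1 at -0.02 and Brd2 at -0.11.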
